A study of Mus musculus with 18 samples.

Results

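The genes described here encode parts of the elastic fibre and of the microfibrils that surround it: Eln, Fbn1, Mfap4, Mfap5, Ltbp2, Fbln1, Fbln2, Fbln5 and Emilin1. These 9 genes were chosen by name, for the known function of their products, out of 35560 genes that both count tables of the study share. The choice was made with earlier results of these data known, so counts set beside all genes are a description. All 9 genes were among the 14623 genes with enough reads to be tested. Their RNA was measured in hearts of male wild-type C57BL/6 mice, in 3 groups with 6 libraries each. The sample titles name the tissue only as heart. Mice of the 1 µm PS group were given polystyrene (PS) particles of 1 µm by oral gavage at 50 mg/kg/day for 21 days together with isoproterenol (ISO), a drug that drives beta-adrenergic receptors. Mice of the 100 nm PS group were given ISO and the same amount of PS particles of 100 nm. Mice of the ISO group were given ISO and a gavage of water. In every group ISO was injected under the skin each day at 2.5 mg/kg in PBS, so all hearts were ISO-treated and no unstressed heart was measured. The ages of the mice are not given in the labels.

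Elastic fibres let arteries, heart valves and the sheaths around muscle bundles stretch and recoil. Microfibrils of fibrillin form first and act as a scaffold on which tropoelastin, the product of Eln, is laid down and then crosslinked by lysyl oxidases. Fibulins and microfibril-associated proteins guide that deposition, and microfibrils also hold latent TGF-beta in the matrix. In the heart these genes are known chiefly from fibroblasts, smooth muscle cells, valve interstitial cells and endocardium, not from cardiac myocytes. In RNA of heart tissue, a change in the number of such cells and a change in RNA per cell cannot be told apart.

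Sequencing was split between 2 providers, and the provider is the batch. Batch 1 holds 4 libraries of 1 µm PS, 5 of 100 nm PS and 3 of ISO, and batch 2 holds 2, 1 and 3. Total counts per library ran from 14032257 to 22600570, and a member gene had 14 to 5891 reads in a library. ISO replicate 2 stood apart, with 13152 genes detected against 16562 to 18755 in the other 17 libraries, and it was the lowest ISO library for 5 of the 9 genes. Across genes, GC content was set against how far a library departed from the mean of its batch, and the rank correlation was 0.124 to 0.369 in the 12 PS libraries and -0.606 to 0.008 in the 6 ISO libraries, without overlap. The part of this shift in the results was not tested on its own, and it cannot be told apart from the difference between the groups. A correction that takes out the GC trend of each library also takes out any group difference that follows GC content. Counts and fold changes after a correction for it close the account of each comparison with ISO. The cardiac myocyte markers Myh6, Actc1, Tnnt2, Tnni3, Ryr2, Myl2 and Mb together made up 49800 to 114000 reads scaled to library size (CPM) in 1 µm PS libraries, 42600 to 90100 in 100 nm PS libraries and 28100 to 102000 in ISO libraries, which fits the labelled tissue.

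**Figure D1:**
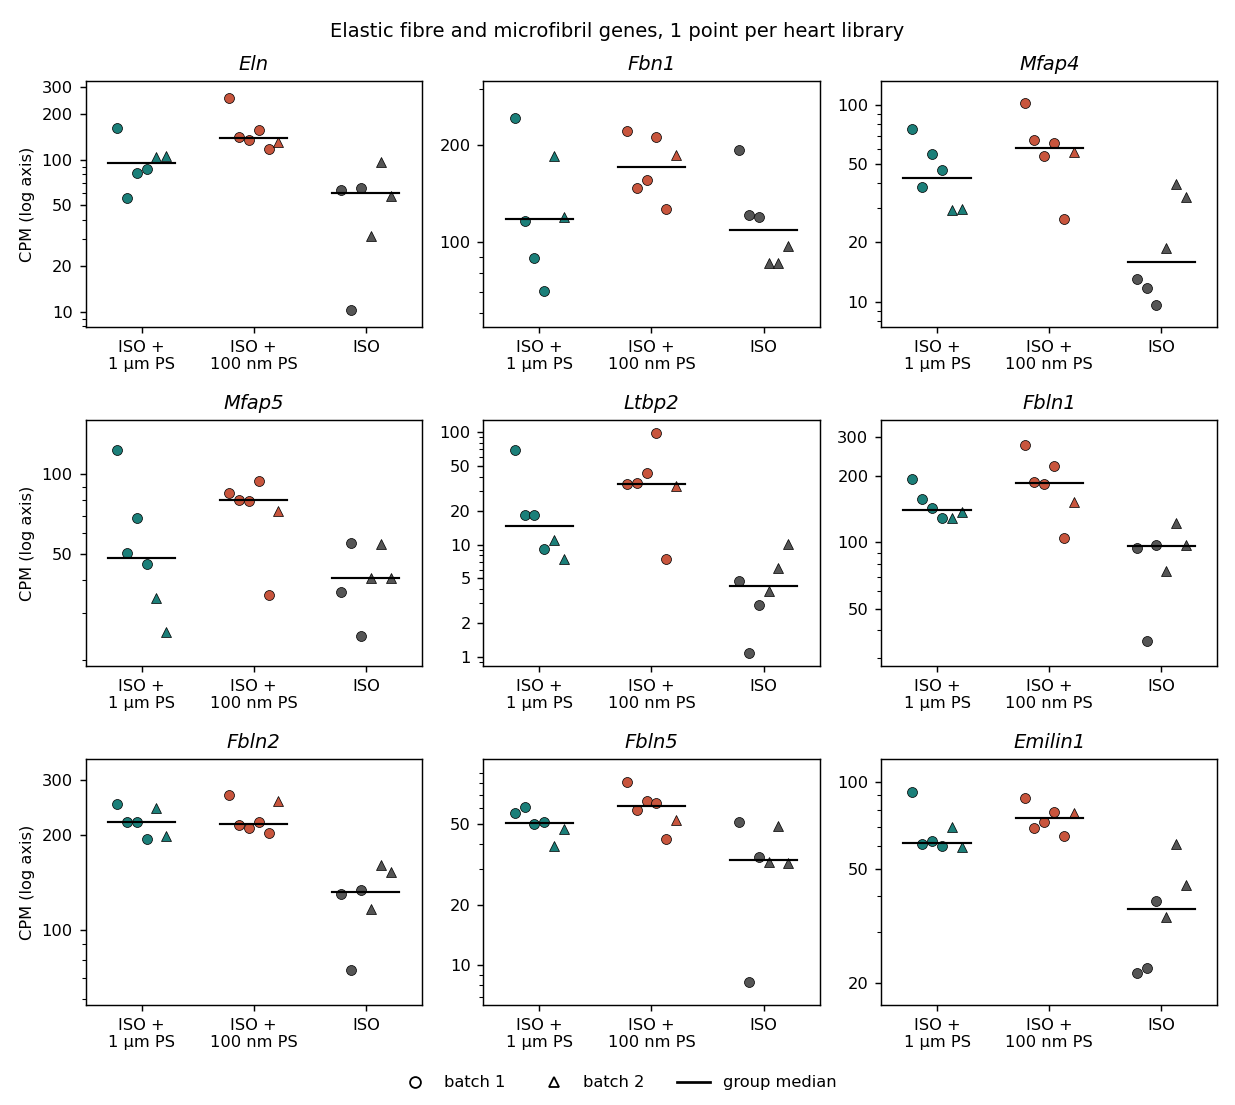
CPM of the 9 genes (log axis) in each heart library, by group; circles are batch 1, triangles batch 2, and the line is the group median. For Fbln2 the PS libraries, at 194 to 269 CPM, all lie above the ISO libraries, at 74.6 to 161 CPM, while Ltbp2 spreads from 7.41 to 98.2 CPM among PS libraries.

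Set per kilobase of the longest transcript, so that genes can be compared, the fibulins Fbln2 and Fbln1 had the most RNA and Ltbp2 the least in every group. Fbln2 had a level of 46.3 ± 4.89 CPM per kb in 1 µm PS hearts, 47.9 ± 5.59 in 100 nm PS hearts and 26.8 ± 6.46 in ISO hearts (SD, n = 6). Fbln1 had a level of 40.6 ± 6.82, 51.3 ± 16.0 and 23.8 ± 8.09 CPM per kb in the same groups. These neighbours did not differ beyond their spread. Eln, Mfap4 and Mfap5 formed a middle tier with overlapping spreads, at 25.9, 26.0 and 23.3 CPM per kb in 1 µm PS hearts, 40.5, 35.0 and 29.9 in 100 nm PS hearts, and 14.0, 12.0 and 16.9 in ISO hearts. Emilin1 (17.5, 19.5 and 9.60), Fbn1 (11.5, 14.6 and 9.80) and Fbln5 (8.76, 10.4 and 5.95) followed in the order of the groups 1 µm PS, 100 nm PS and ISO. Ltbp2 was at 3.27, 6.20 and 0.715 CPM per kb.

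The DNA just before the start site is shown for the genes that passed the test with 100 nm PS and have an entry in the promoter table of RefSeq (build GRCm38.p6). Of the 9 genes, 6 have an entry: Fbn1, Ltbp2, Fbln1, Fbln2, Fbln5 and Emilin1. Each window is the 250 bases before the annotated start, read 5′ to 3′ on the strand of the gene. The windows lie at chr12:84876492-84876741 (minus strand) for Ltbp2, chr15:85205699-85205948 (plus strand) for the first of the start sites listed for Fbln1, chr6:91212514-91212763 (plus strand) for Fbln2 and chr5:30913536-30913785 (plus strand) for Emilin1. Capitals mark the GC box GGGCGG, a binding motif of Sp factors, and the short SMAD motif CAGAC, the motif of the factors that carry TGF-beta signals, on either strand.
Ltbp2: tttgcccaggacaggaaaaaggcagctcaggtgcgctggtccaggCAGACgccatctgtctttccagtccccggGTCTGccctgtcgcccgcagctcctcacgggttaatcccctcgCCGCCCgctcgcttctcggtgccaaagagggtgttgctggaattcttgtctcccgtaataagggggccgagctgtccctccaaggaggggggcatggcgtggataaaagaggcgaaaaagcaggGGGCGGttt
Fbln1: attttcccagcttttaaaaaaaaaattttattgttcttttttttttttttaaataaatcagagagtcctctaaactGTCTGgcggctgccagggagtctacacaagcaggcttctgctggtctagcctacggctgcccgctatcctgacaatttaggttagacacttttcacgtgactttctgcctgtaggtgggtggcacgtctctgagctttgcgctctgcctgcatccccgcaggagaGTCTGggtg
Fbln2: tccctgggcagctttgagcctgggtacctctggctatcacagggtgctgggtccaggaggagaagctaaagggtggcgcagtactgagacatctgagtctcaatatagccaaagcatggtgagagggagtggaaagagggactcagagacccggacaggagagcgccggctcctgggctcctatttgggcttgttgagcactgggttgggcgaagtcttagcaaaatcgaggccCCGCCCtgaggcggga
Emilin1: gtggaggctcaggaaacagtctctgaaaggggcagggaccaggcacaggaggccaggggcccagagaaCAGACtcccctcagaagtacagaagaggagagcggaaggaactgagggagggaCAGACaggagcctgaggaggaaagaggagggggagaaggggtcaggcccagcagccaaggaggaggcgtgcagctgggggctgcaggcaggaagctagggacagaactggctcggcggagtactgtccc
Ltbp2 has 2 GC boxes and 2 SMAD motifs in its window, Fbln1 and Emilin1 have 2 SMAD motifs each, and Fbln2 has 1 GC box. The matches do not overlap one another. Over the first windows of the 6 genes, 4 hold a GC box, against 32.7% of all 32851 windows of that length, and 3 hold a SMAD motif, against 42.2%. A TATA box (TATAAA, in 12.4% of all windows), an AP-1 motif (TGANTCA, 6.7%), a TEAD motif (GGAATG, 12.6%) and a CArG box (1.5%) were also searched for on both strands and were in 0 of the 6. A match of letters is a description and not a bound site.

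Hearts given 100 nm PS had more RNA of 6 of the 9 genes than hearts given ISO alone: Eln, Mfap4, Ltbp2, Fbln1, Fbln2 and Emilin1. Fbn1, Mfap5 and Fbln5 did not pass, and no gene was lower. By edgeR's quasi-likelihood test with batch as a term and an adjusted p (Benjamini-Hochberg over all genes tested) under 0.05, 3.88% of all genes were higher and 5.69% were lower in this comparison. The median log2 fold change was 1.11 over the 9 genes and -0.02 over all genes.

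Eln, the elastic core itself, had 118, 138 and 253 CPM as the lowest, median and highest library in 100 nm PS hearts, against 10.3, 60.1 and 96.8 CPM in ISO hearts. The groups did not overlap. The high end is 100 nm PS replicate 1 and the low end is ISO replicate 2. The log2 fold change was 1.60 (SE 0.40, adjusted p = 0.0227), a 3.03-fold difference, with 1.79 in batch 1 alone and 1.08 in batch 2 alone.

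Fbn1, which encodes the fibrillin of the microfibril backbone and is mutated in Marfan syndrome, had 127, 171 and 222 CPM in 100 nm PS hearts, against 85.8, 108 and 194 CPM in ISO hearts. The groups overlapped, because ISO replicate 1 was above 4 of the 100 nm PS libraries. For Fbn1 the log2 fold change was 0.54 (SE 0.28, adjusted p = 0.21), at 0.25 in batch 1 and 1.05 in batch 2.

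Mfap4, a microfibril-associated glycoprotein that binds elastin and collagen, had 26.3, 60.7 and 102 CPM in 100 nm PS hearts, against 9.64, 16.0 and 39.5 CPM in ISO hearts. Replicate 5 of 100 nm PS was the one library of its group within the ISO range. For Mfap4 this was 1.70 on the log2 scale (SE 0.42, adjusted p = 0.0217), at 2.45 in batch 1 and 0.90 in batch 2. Mfap5, a small glycoprotein that binds fibrillins, had 35.3, 79.7 and 94.3 CPM in 100 nm PS hearts, against 24.7, 40.9 and 55.0 CPM in ISO hearts, with the same library within the ISO range. Its log2 fold change was 0.70 (SE 0.33, adjusted p = 0.177), at 0.96 in batch 1 and 0.68 in batch 2.

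Ltbp2 had the largest fold change of the 9 genes and ranked 9 of 14623 genes by log2 fold change. Its product binds fibrillin and belongs to the latent TGF-beta binding proteins, though unlike its relatives it does not bind latent TGF-beta. It had 7.46, 34.8 and 98.2 CPM in 100 nm PS hearts, against 1.08, 4.31 and 10.2 CPM in ISO hearts. Replicate 5 of 100 nm PS lay within the ISO range, replicate 4 was far above the rest, and ISO replicate 6 was the highest ISO library. On the log2 scale Ltbp2 differed by 3.02 (SE 0.71, adjusted p = 0.0184), at 3.91 in batch 1 and 2.30 in batch 2.

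The fibulins are glycoproteins that bridge elastin, fibrillin and basement membranes. Fbln1 had 105, 186 and 276 CPM in 100 nm PS hearts, against 35.7, 95.9 and 123 CPM in ISO hearts, with replicate 5 of 100 nm PS inside the ISO range. For Fbln1 the log2 fold change was 1.11 (SE 0.28, adjusted p = 0.0224), at 1.35 in batch 1 and 0.63 in batch 2. Fbln2, known from developing valves and endocardium, had 204, 218 and 269 CPM in 100 nm PS hearts, against 74.6, 132 and 161 CPM in ISO hearts, with no overlap. The log2 fold change of Fbln2 was 0.91 (SE 0.17, adjusted p = 0.0112), at 0.98 in batch 1 and 0.85 in batch 2. Fbln5, without which mice form defective elastic fibres, had 42.5, 61.5 and 80.9 CPM in 100 nm PS hearts, against 8.26, 33.5 and 51.5 CPM in ISO hearts. All 100 nm PS libraries except replicate 5 were above the ISO range, and the log2 fold change of 0.78 (SE 0.31, adjusted p = 0.107; 0.97 in batch 1 and 0.47 in batch 2) did not pass.

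Emilin1, a glycoprotein at the interface of elastin and microfibrils that restrains TGF-beta maturation, had 64.8, 75.3 and 87.9 CPM in 100 nm PS hearts, against 21.7, 36.3 and 61.1 CPM in ISO hearts. The groups did not overlap, with the low ISO end at replicates 1 and 2 and the high ISO end at replicate 5. The log2 fold change of Emilin1 was 1.15 (SE 0.22, adjusted p = 0.0112), at 1.42 in batch 1 and 0.75 in batch 2. In all, every 100 nm PS library was above every ISO library for 3 of the 9 genes (Eln, Fbln2 and Emilin1), as for 1.63% of all genes.

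**Figure D2:**
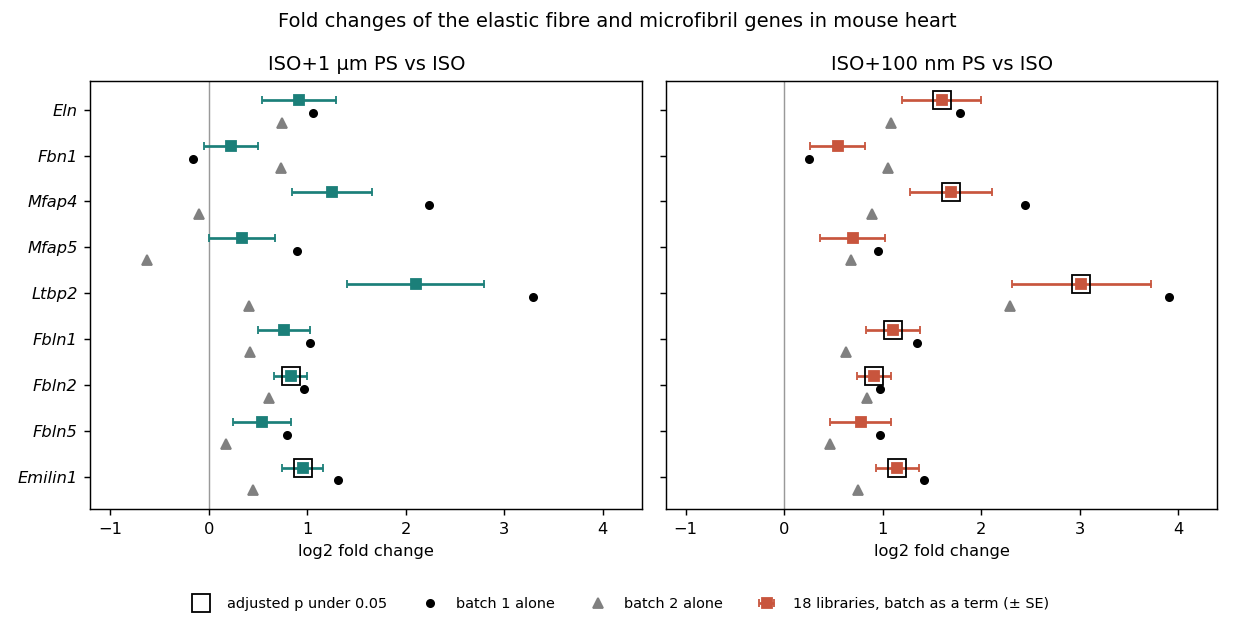
Log2 fold change of each gene against ISO, at 1 µm PS (left) and 100 nm PS (right); squares are from all 18 libraries with their SE, an open box marks an adjusted p under 0.05, and circles and triangles are batch 1 and batch 2 alone. For Mfap4 at 1 µm PS the batches lie at 2.24 and -0.10.

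The calls of Fbln2 and Emilin1 held whichever library was left out. Without 100 nm PS replicate 1 those of Eln (log2 fold change 1.42, adjusted p = 0.0535) and Fbln1 (0.98, adjusted p = 0.0524) ended, and 493 of all genes passed, against 1399 with all libraries. Without 100 nm PS replicate 6, the one library of its group in batch 2, the calls of Eln (1.73, adjusted p = 0.0566), Fbln1 (1.22, 0.0553), Mfap4 (1.85, 0.058) and Ltbp2 (3.12, 0.0637) ended, and 170 of all genes passed. Without ISO replicates 1 and 2 together, 3 of the 9 genes (Eln, Fbln2 and Emilin1) and 606 of all genes passed. Without the batch term 0 of the 9 and 0 of all genes passed, with 8 of the 9 and 2759 of all genes at an unadjusted p under 0.05, and the log2 fold changes were 3.11 for Ltbp2, 1.53 for Eln and 1.11 for Fbln1.

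After the correction for GC content 0 of the 9 and 1 of all genes passed at 100 nm, with 7 of the 9 and 3979 of all genes at an unadjusted p under 0.05. The median log2 fold change was then 0.74 over the 9 genes and -0.16 over all genes. Fbln2 was at 0.40 (adjusted p = 0.114) after the correction and Emilin1 at 0.54 (0.0582), against 0.91 and 1.15 without it. Corrected values of Eln (1.06, adjusted p = 0.08), Fbln1 (0.74, 0.0751), Mfap4 (1.36, 0.0588) and Ltbp2 (2.47, 0.0559) were also smaller. So were those of Fbn1 (0.26, adjusted p = 0.592) and Mfap5 (0.53, 0.335). Fbln5 was larger with the correction, at 0.83 (adjusted p = 0.0663) against 0.78 without it.

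**Figure D3:**
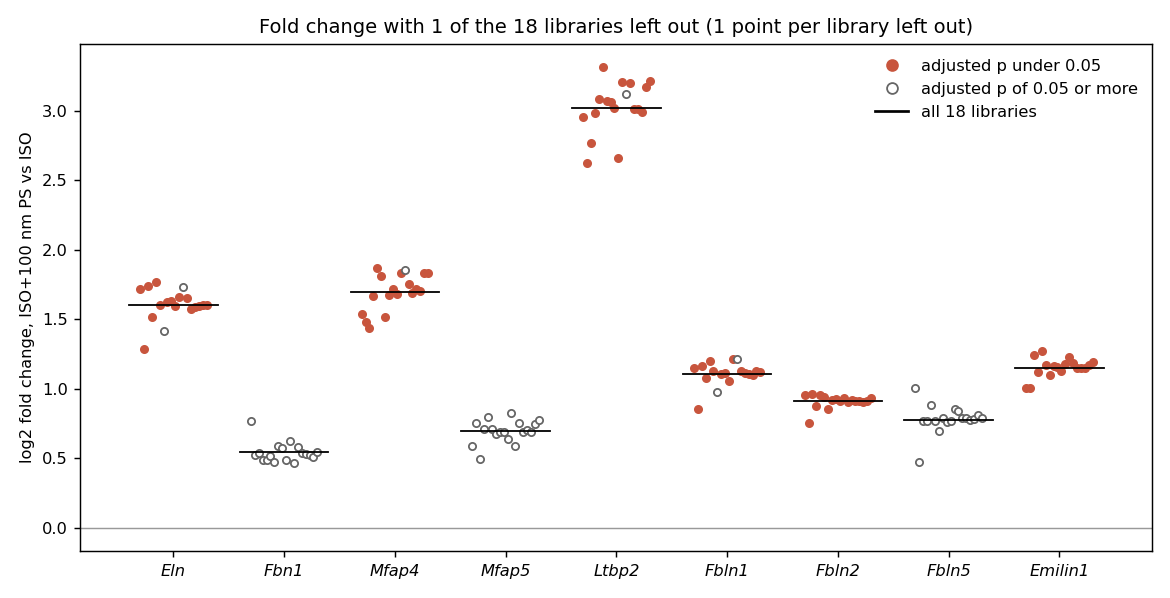
Log2 fold change of each gene, 100 nm PS against ISO, when 1 of the 18 libraries is left out (1 point each); filled points have an adjusted p under 0.05 and the line is the value with all libraries. Fbln2 stays between 0.75 and 0.96 and Ltbp2 between 2.62 and 3.31.

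Hearts given 1 µm PS had more RNA of 2 of the 9 genes, Fbln2 and Emilin1, than hearts given ISO alone, and 7 did not pass. Of all genes, 2.89% were higher in this comparison, which shares its ISO libraries with the one above. The median log2 fold change was 0.83 over the 9 genes and -0.002 over all genes. Fbln2 had 194, 220 and 251 CPM as the lowest, median and highest library in 1 µm PS hearts, against 74.6, 132 and 161 CPM in ISO hearts, with no overlap. Its log2 fold change came to 0.83 (SE 0.17, adjusted p = 0.0133), at 0.96 in batch 1 and 0.61 in batch 2. Emilin1 had 59.3, 61.6 and 92.6 CPM in 1 µm PS hearts, against 21.7, 36.3 and 61.1 CPM in ISO hearts, and ISO replicate 5 reached into the 1 µm PS range. That of Emilin1 came to 0.95 (SE 0.21, adjusted p = 0.0183), at 1.31 in batch 1 and 0.46 in batch 2.

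Fbln1 had 129, 140 and 194 CPM in 1 µm PS hearts, against 35.7, 95.9 and 123 CPM in ISO hearts. Its groups did not overlap, as for 2 of the 9 genes (Fbln1 and Fbln2) and 1.12% of all genes, and its log2 fold change was 0.77 (SE 0.26, adjusted p = 0.074; 1.03 in batch 1 and 0.42 in batch 2). Eln had 56.0, 95.8 and 162 CPM in 1 µm PS hearts, against 10.3, 60.1 and 96.8 CPM in ISO hearts. Here 3 of the 1 µm PS libraries were above the ISO range, and the log2 fold change was 0.92 (SE 0.38, adjusted p = 0.126; 1.06 in batch 1 and 0.74 in batch 2).

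Ltbp2 had 7.41, 14.6 and 68.7 CPM in 1 µm PS hearts, against 1.08, 4.31 and 10.2 CPM in ISO hearts. One library, 1 µm PS replicate 1, stood far above the others of its group. The log2 fold change of Ltbp2 was 2.10 (SE 0.69, adjusted p = 0.0662), at 3.30 in batch 1 and 0.41 in batch 2, and it ranked 13 of 14623 genes.

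The estimates of the microfibril-associated genes had opposite signs in the 2 batches at 1 µm. An edgeR term for a PS difference that changes with the batch, over both sizes together, passed for neither. Its adjusted p was 0.0645 for Mfap4 and 0.372 for Mfap5, and no such term was fitted for 1 µm alone. Mfap4 had 29.1, 42.5 and 75.7 CPM in 1 µm PS hearts, against 9.64, 16.0 and 39.5 CPM in ISO hearts. Its log2 fold change was 1.25 (SE 0.41, adjusted p = 0.0637), at 2.24 in batch 1 and -0.10 in batch 2. Mfap5 had 25.6, 48.4 and 123 CPM in 1 µm PS hearts, against 24.7, 40.9 and 55.0 CPM in ISO hearts, and was at 0.34 (SE 0.33, adjusted p = 0.537), 0.90 in batch 1 and -0.63 in batch 2, and at 0.047 without 1 µm PS replicate 1. For both genes the low 1 µm PS libraries are replicates 5 and 6, those of batch 2.

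Fbn1 had 70.6, 118 and 244 CPM in 1 µm PS hearts, against 85.8, 108 and 194 CPM in ISO hearts, so that the 1 µm PS libraries enclosed the ISO range. Its log2 fold change was 0.23 (SE 0.28, adjusted p = 0.628), at -0.16 in batch 1 and 0.74 in batch 2, and it was -0.01 without 1 µm PS replicate 1. Fbln5 had 39.0, 50.9 and 60.9 CPM in 1 µm PS hearts, against 8.26, 33.5 and 51.5 CPM in ISO hearts, and was at 0.54 on the log2 scale (SE 0.30, adjusted p = 0.247; 0.79 in batch 1 and 0.17 in batch 2), and at 0.27 without ISO replicate 2.

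The calls of Fbln2 and Emilin1 at 1 µm held whichever single library was left out. Fbln1 and Mfap4 passed too without ISO replicate 5 (4 of 9 genes and 1358 of all genes, against 1081 with all libraries), and Mfap4 also without 1 µm PS replicate 5. Without ISO replicates 1 and 2 together 1 of the 9, Fbln2, and 973 of all genes passed. In a fit of the 1 µm PS and ISO groups only, 0 of the 9 and 0 of all genes passed. Without the batch term 0 of the 9 and 0 of all genes passed, with 6 of the 9 and 2358 of all genes at an unadjusted p under 0.05. After the GC correction 0 of the 9 and 2 of all genes passed, with 5 of the 9 and 2987 of all genes at an unadjusted p under 0.05. The median log2 fold change of the 9 genes was then 0.42, with -0.10 over all genes. Corrected values were 0.35 for Fbln2 (adjusted p = 0.204) and 0.37 for Emilin1 (0.167), against 0.83 and 0.95 without the correction.

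Particle size was compared directly between 1 µm PS and 100 nm PS, at the same dose by mass and the same time. By edgeR 0 of the 9 genes and 0 of all genes passed (0%), with 0 of the 9 and 49 of all genes (0.335%) at an unadjusted p under 0.05, and DESeq2 called 0 genes as well. All 9 estimates were below 0, with a median of -0.34 against 0.01 over all genes. Ltbp2 averaged 22.1 ± 23.3 CPM in 1 µm PS hearts and 42.0 ± 30.1 CPM in 100 nm PS hearts (SD, n = 6 each), a log2 difference of -0.92 with a 95% interval of -2.17 to 0.33. It was -1.73 without 1 µm PS replicate 1 and -0.47 without 100 nm PS replicate 4, the highest libraries of their groups. Eln averaged 99.6 ± 35.4 CPM in 1 µm PS hearts and 156 ± 49.4 CPM in 100 nm PS hearts, with a log2 difference of -0.68 (-1.48 to 0.12). Fbln2, the tightest, averaged 222 ± 23.4 CPM in 1 µm PS hearts and 229 ± 26.7 CPM in 100 nm PS hearts, a log2 difference of -0.08 (-0.43 to 0.27). The adjusted p was 1 for all 9. For the others the log2 differences and intervals were -0.44 (-1.21 to 0.33) for Mfap4, -0.36 (-1.02 to 0.31) for Mfap5, -0.34 (-0.89 to 0.21) for Fbln1, -0.32 (-0.92 to 0.29) for Fbn1, -0.24 (-0.86 to 0.38) for Fbln5 and -0.20 (-0.63 to 0.24) for Emilin1. All 9 intervals include 0. In batch 1 and batch 2 alone the differences were -0.61 and -1.89 for Ltbp2, -0.73 and -0.34 for Eln, and -0.01 and -0.24 for Fbln2, where batch 2 has 1 library of 100 nm PS.

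With both PS groups averaged against ISO, 6 of the 9 genes were higher, the same ones as at 100 nm, while 6.80% of all genes were higher. The log2 fold changes were 2.56 for Ltbp2 (SE 0.66, adjusted p = 0.0143), 1.48 for Mfap4 (SE 0.38, adjusted p = 0.0148), 1.26 for Eln (SE 0.35, adjusted p = 0.0213), 1.05 for Emilin1 (SE 0.20, adjusted p = 0.00301), 0.94 for Fbln1 (SE 0.24, adjusted p = 0.0149) and 0.87 for Fbln2 (SE 0.15, adjusted p = 0.00225). These 6 calls held in each of the 18 fits that left out 1 library. Without ISO replicates 1 and 2 together Fbln2 and Emilin1 passed (2 of 9), as did 1543 of all genes, against 2590 with all libraries. In batch 2 alone 0 of the 9 and 272 of all genes passed, with log2 fold changes there of 1.35 for Ltbp2, 0.40 for Mfap4, 0.91 for Eln, 0.60 for Emilin1, 0.52 for Fbln1 and 0.73 for Fbln2. After the GC correction 4 of the 9 and 1829 of all genes passed, with a median log2 fold change of 0.58 over the 9 and -0.13 over all genes. The 4 were Emilin1 at 0.46 (adjusted p = 0.0339), Mfap4 at 1.15 (0.0397), Ltbp2 at 2.01 (0.0419) and Fbln5 at 0.71 (0.0442), while Eln (0.74, adjusted p = 0.118), Fbln1 (0.58, 0.0741) and Fbln2 (0.38, 0.0741) did not.

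Fbln2 was the one gene of the 9 with every PS library above every ISO library, as for 0.574% of all genes. Within batch 1 this held for 5 of the 9 genes (Mfap4, Ltbp2, Fbln1, Fbln2 and Emilin1) and 7.74% of all genes. Within batch 2, with 3 PS and 3 ISO libraries, it held for 4 of the 9 genes (Eln, Fbn1, Fbln1 and Fbln2) and 16.7% of all genes. Fbln1 and Fbln2 were separated within both batches. The batch-by-PS term, which asks whether the PS difference itself changed with the provider, passed for 0 of the 9 genes and for 0.328% of all genes. Mfap4 came nearest, at -2.0 on the log2 scale (SE 0.51, adjusted p = 0.0645, unadjusted p = 0.00107), so its PS difference was estimated smaller in batch 2. It passed without ISO replicate 2 or without 100 nm PS replicate 5. Ltbp2 (-2.31, adjusted p = 0.258) and Emilin1 (-0.78, adjusted p = 0.229) had unadjusted p values of 0.0409 and 0.0311. An unadjusted p under 0.05 was thus found for 3 of the 9 genes and for 17.8% of all genes.

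After group and batch were removed, the 9 genes still varied together from heart to heart, though not as 1 block. Pearson's r over the 36 gene pairs in 18 libraries had a median of 0.561 and ran from -0.003 (Fbn1 with Mfap4) to 0.885 (Fbln1 with Fbln5). This is a description without a test, and the genes of a library share its depth, its RNA and its cell makeup. Eln, Fbln1, Fbln2 and Fbln5 correlated with each other at 0.816 to 0.885. ISO replicate 2 was the lowest ISO library for each of them. It was at 10.3 CPM for Eln and 8.26 CPM for Fbln5, against ISO medians of 60.1 and 33.5 CPM. These r include that library, and its part in them was not tested. Mfap4 and Mfap5 correlated at 0.804. Fbn1 stayed at or below 0.379 with each of the other genes. Within a group the same libraries recurred at the ends: 1 µm PS replicate 1 was the highest of its group for 8 of the 9 genes, 100 nm PS replicate 1 for 7 and replicate 4 for the other 2, and 100 nm PS replicate 5 was the lowest for all 9.

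**Figure D4:**
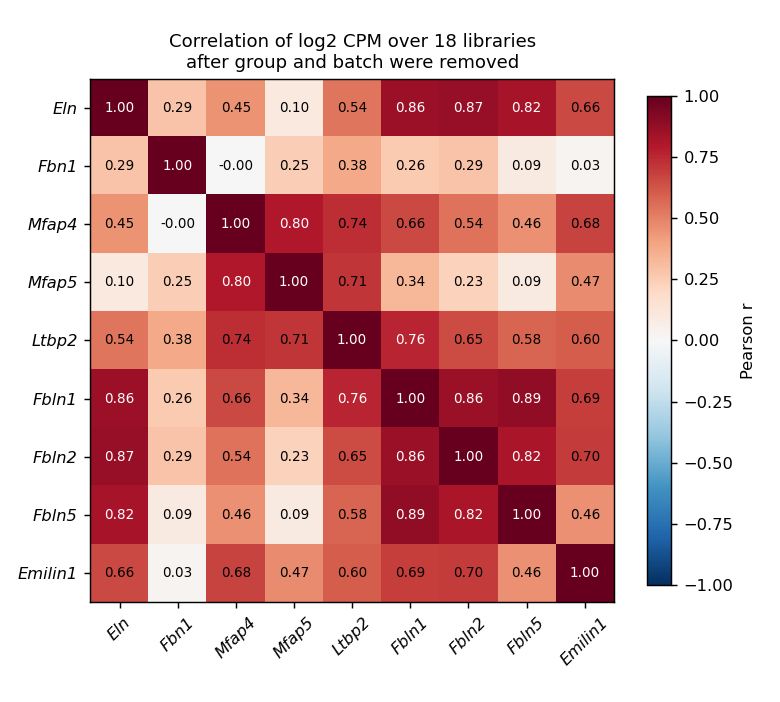
Pearson correlation of log2 CPM between the 9 genes over 18 libraries, after the means of group and batch were removed. Eln and the 3 fibulins lie between 0.816 and 0.885 with each other, while Fbn1 reaches 0.379 at most. The libraries include ISO replicate 2, the lowest ISO library for Eln and the 3 fibulins.

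The genes whose pattern over all 18 libraries was most like a member's, by Pearson's r on log2 CPM with each batch centred, included collagens and other matrix genes. Eln was closest to Col1a1, the main fibrillar collagen (r = 0.951, and 0.889 without ISO replicate 2). Fbn1 was closest to Fbn2, the other fibrillin (0.850, and 0.866 without that library), and Mfap4 to Serpinf1 (0.961 and 0.952). Mfap5 was closest to Fstl1 (0.911 and 0.942), Ltbp2 to Sfrp2 (0.956 and 0.938), Fbln1 to Boc (0.967 and 0.931) and Fbln2 to Ace, the angiotensin-converting enzyme (0.970 and 0.947). Fbln5 was closest to Plekha7 (0.983 and 0.919) and Emilin1 to Nbl1 (0.969 and 0.963). The second closest were Myof to Eln (0.939), Pmepa1 to Fbn1 (0.796), Dap to Mfap4 (0.949), Thbs4 to Mfap5 (0.908), Col8a2 to Ltbp2 (0.955), Col1a1 to Fbln1 (0.965), Col6a2 to Fbln2 (0.965), Car13 to Fbln5 (0.978) and Col16a1 to Emilin1 (0.968). The shared difference between groups and the shared libraries enter each r, and no test was made.

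Other genes of the elastic fibre pathway were read from a list of 76, of which 72 were tested. That list was also chosen with earlier results of these data known. With both PS groups averaged, 15 were higher than in ISO hearts, 1 was lower and 56 did not pass, and the median log2 fold change of the list was 0.47, with -0.01 over all genes. Over all genes 6.80% were higher, 10.9% were lower and 17.7% passed in either direction. At 100 nm 13 were higher and 1 was lower (9.57% of all genes passed in either direction), and at 1 µm 12 were higher and 1 was lower (4.50% of all genes were lower and 7.39% passed in either direction). The count in either direction at 100 nm was 14, with 6 without 100 nm PS replicate 6 and 9 without replicate 1. At 1 µm it was 13, with 2 without 1 µm PS replicate 1 and 3, 5, 7 and 7 without replicates 3, 2, 4 and 6, 4 each without ISO replicates 4 and 6, and 8 each without 100 nm PS replicates 1, 2, 3 and 6. The count for both groups averaged was 15 to 20 when any 1 library was left out. The values below are for that comparison.

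Among the relatives of Ltbp2, the 2 latent TGF-beta binding proteins Ltbp3 and Ltbp4 rose and Ltbp1 (0.23, adjusted p = 0.414) did not pass. Ltbp4 averaged 846 ± 57.0 CPM in 1 µm PS hearts, 854 ± 61.9 in 100 nm PS hearts and 408 ± 171 in ISO hearts (SD, n = 6 each), and was at 1.09 on the log2 scale (SE 0.26, adjusted p = 0.0107). Ltbp3 was at 1.09 (SE 0.23, adjusted p = 0.00513). Of the 5 lysyl oxidases, which crosslink elastin, Loxl1 (0.96, SE 0.20, adjusted p = 0.00513) and Loxl3 (1.24, SE 0.28, adjusted p = 0.00815) rose, and Loxl2 (0.81, adjusted p = 0.053) did not pass.

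Of 10 tested ADAMTS family genes, Adamtsl2, whose product binds fibrillin and LTBPs, averaged 42.4 ± 10.4 CPM in 1 µm PS hearts, 52.7 ± 9.99 in 100 nm PS hearts and 21.8 ± 9.63 in ISO hearts (SD, n = 6 each; log2 fold change 1.28, SE 0.21, adjusted p = 0.00192). Adamtsl4 rose too (0.78, adjusted p = 0.0291), while Adamts10 (0.75, adjusted p = 0.0791) did not pass. Of 6 TGF-beta family ligands, Tgfb1 (0.76, SE 0.12, adjusted p = 0.00192) and Tgfb3 (1.22, SE 0.23, adjusted p = 0.00376) rose, and Bmp4 was at 0.84 (adjusted p = 0.129).

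Of 15 tested proteases and inhibitors, the membrane protease Mmp14 (0.84, adjusted p = 0.00784) and the gelatinase Mmp2 (0.78, adjusted p = 0.0106) rose, and the inhibitor Timp2 was at 0.43 (adjusted p = 0.0546). Among 8 matrix partners the fibronectin gene Fn1 (0.85, adjusted p = 0.00678), the perlecan gene Hspg2 (0.95, adjusted p = 0.0143) and the proteoglycan gene Bgn (1.00, adjusted p = 0.024) rose. Among 11 receptors Itga5, which with integrin beta-1 binds fibronectin, rose (0.99, adjusted p = 0.0148), with Itgav at -0.48 (adjusted p = 0.0734) and the sialidase Neu1 of the elastin receptor complex at 0.30 (adjusted p = 0.0764). The endothelial Mmrn2 rose (0.69, adjusted p = 0.0124), and Mmrn1 (0.62, adjusted p = 0.467) and Emilin2 (-0.15, adjusted p = 0.63) did not pass.

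None of the 5 other fibulins and hemicentins passed, with Efemp2 at 0.53 (adjusted p = 0.0634), Hmcn2 at 0.57 (0.0756) and Fbln7 at 1.21 (0.135). In the list of other microfibril scaffold genes Mfap3l, whose product is a membrane protein and not a known microfibril component, fell by 1.05 on the log2 scale (adjusted p = 0.00395), and Mfap1a (-0.30, adjusted p = 0.159) and Mfap1b (-0.43, adjusted p = 0.202), near-identical copies with uncertain counts whose products act in splicing, did not pass. The other members of that list, named after their values were seen, are Fbn2 (0.60, SE 0.39, adjusted p = 0.294), Mfap2, a microfibril glycoprotein that binds fibrillin (0.89, SE 0.49, adjusted p = 0.205), and Mfap3 (0.13, adjusted p = 0.751). All 16 genes that passed had the same direction in both batches, and 14 passed whichever library was left out. They were picked by the fit over both batches, so the shared direction is no separate evidence. Of the 15 that were higher, 11 had the larger log2 fold change in batch 1. Adamtsl4 did not pass without ISO replicate 1, 2 or 4 (adjusted p up to 0.0693), and Bgn not without ISO replicate 4 or 100 nm PS replicate 6 (up to 0.0563). After the GC correction 6 of the 16 passed, Loxl3, Adamtsl2, Ltbp3, Mfap3l, Tgfb1 and Tgfb3.

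**Figure D5:**
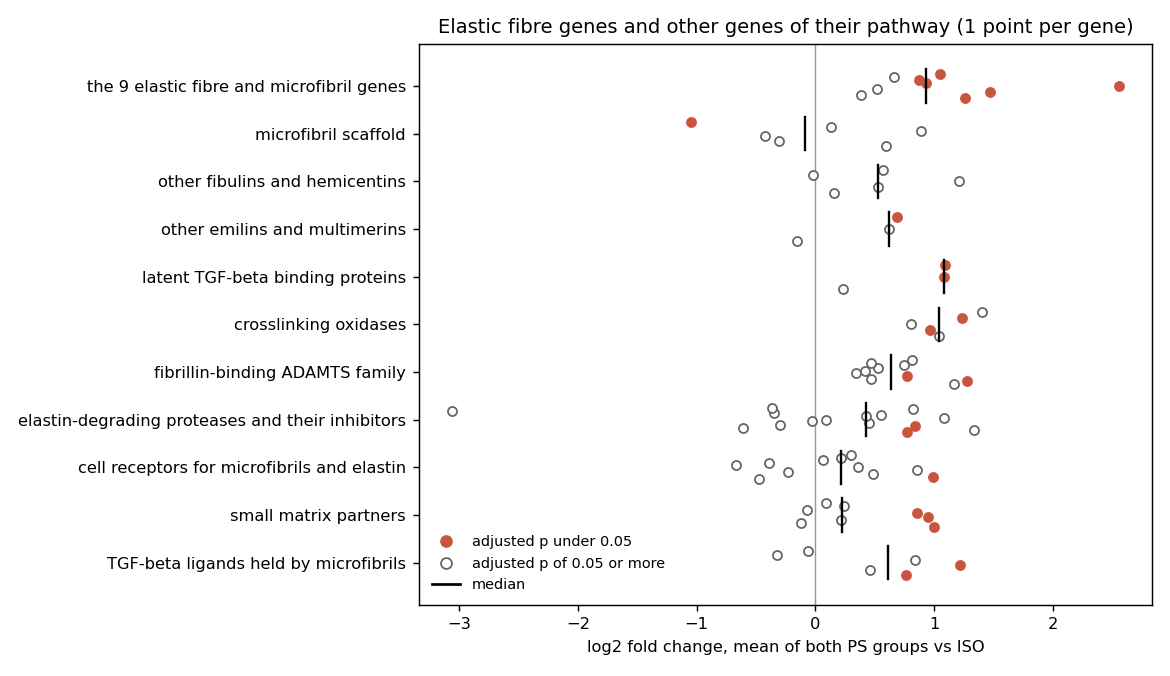
Log2 fold change of both PS groups averaged against ISO (1 point per gene), for the 9 genes at the top and for 72 other pathway genes by role; filled points have an adjusted p under 0.05 and the line is the median of a row. The latent TGF-beta binding proteins have a median of 1.09, and among the other microfibril scaffold genes Mfap2 lies at 0.89, Fbn2 at 0.60 and Mfap3l at -1.05.

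Marker lists of other cell types were read beside these genes, and their part in the results was not tested. The summed level of 9 fibroblast markers was 2970 to 4090 CPM in 1 µm PS hearts, 3030 to 5200 in 100 nm PS hearts and 2290 to 3330 in ISO hearts. Gsn, the highest of them, averaged 2570 CPM in 1 µm PS hearts, 2730 in 100 nm PS hearts and 1850 in ISO hearts. In batch 1 the sums were 3028 to 5196 CPM in PS libraries and 2286 to 2940 in ISO libraries. In batch 2 they were 2972 to 3520 CPM in PS libraries and 2597 to 3329 in ISO libraries. Of the 9 markers, 1 was higher at 1 µm and 8 did not pass, and 3 were higher at 100 nm and 6 did not pass, with median log2 fold changes of 0.39 and 0.61. Pi16 was higher at each size, and Islr and Gsn at 100 nm. The 6 that did not pass at 100 nm were Dcn (-0.032), Lum (0.083), Pdgfra (0.195), Ddr2 (0.38), Tcf21 (0.653) and Meox1 (0.775). The summed level of 7 smooth muscle markers was 625 to 1120 CPM in 1 µm PS hearts, 586 to 1170 in 100 nm PS hearts and 218 to 966 in ISO hearts, with 3 of 7 higher and 4 not passing at each size. Their sums in batch 1 were 586.3 to 1121 CPM in PS libraries and 218.5 to 399.3 in ISO libraries. Those in batch 2 were 959.3 to 1172 CPM in PS libraries and 630.9 to 965.5 in ISO libraries. The 6 pericyte markers summed to 881 to 1620 CPM in 1 µm PS hearts, 972 to 1510 in 100 nm PS hearts and 610 to 2000 in ISO hearts. Cspg4, Notch3 and Pdgfrb were higher at each size, and Rgs5 (-0.25), Kcnj8 (-0.11) and Abcc9 (-0.49) had log2 fold changes below 0 at 100 nm and did not pass. The 7 endothelial markers summed to 1460 to 2150 CPM in 1 µm PS hearts, 1460 to 2200 in 100 nm PS hearts and 763 to 1690 in ISO hearts. Of these 0 passed at 1 µm and 1 at 100 nm, Vwf (1.202, adjusted p = 0.0459), with median log2 fold changes of 0.33 and 0.52.

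The 7 valve and cartilage-like markers, of which 5 were tested, summed to 60.5 to 147 CPM in 1 µm PS hearts, 34.3 to 307 in 100 nm PS hearts and 21.9 to 81.1 in ISO hearts, with 1 higher at 1 µm and 2 at 100 nm. In 100 nm PS hearts their highest library was replicate 1 and their lowest replicate 5, the libraries that were also at the ends for most of the 9 genes. The atrial markers reached 3680 CPM in 100 nm PS replicate 1, against 355.3 to 957.5 CPM in the rest of that group, and ran from 275 to 962 CPM in 1 µm PS hearts and from 115 to 957 CPM in ISO hearts. Nppa had the highest mean of those tested, at 513 CPM in 1 µm PS hearts, 882 in 100 nm PS hearts and 480 in ISO hearts. Myl4 averaged 2.73, 98.9 and 2.59 CPM in the same groups, and Myl7 1.37, 60.6 and 1.1 CPM. Of 5 tested atrial markers 0 passed at 1 µm and 2 were higher at 100 nm, Myl4 (4.84, adjusted p = 0.049) and Dkk3 (2.54, adjusted p = 0.0457), and the median log2 fold change of the list at 100 nm was 2.54. Without 100 nm PS replicate 1 the median was 0.80 and 0 of the 5 passed, with Myl4 at 0.60 (adjusted p = 0.394) and Dkk3 at 1.68 (0.0858). In that fit 1 of 9 fibroblast, 2 of 7 smooth muscle, 2 of 6 pericyte, 0 of 7 endothelial and 2 of 5 valve and cartilage-like markers were higher at 100 nm.

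The 7 mesothelial markers summed to 13.5 to 88.1 CPM in 1 µm PS hearts, 22.1 to 164 in 100 nm PS hearts and 3.48 to 137 in ISO hearts, and 0 passed at either size, with median log2 fold changes of 1.302 at 1 µm and 1.931 at 100 nm. The adipocyte markers, too low to test, were at 38.3 CPM in 100 nm PS replicate 1. The skeletal muscle markers were at 127 CPM in ISO replicate 2, and between 1.49 and 6.60 CPM in the remainder of the ISO group, and of 4 tested 0 passed at 1 µm and 2 were lower at 100 nm. No marker list was at 0 in a PS library. None of 7 cardiac myocyte, 6 macrophage and 5 Schwann and neuron markers passed at either size.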

How the data were processed

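Paired-end poly(A) libraries were made from TRIzol RNA of mouse hearts by 2 providers, per the labels' protocols. The deposited batch 1 table holds raw counts per gene, and the deposited batch 2 table holds estimated counts per gene, of which 19.6% of nonzero values are not whole and were rounded. Builds GRCm39 and mm39 and the tools featureCounts 1.5.0-p3, HISAT2 2.0.5, DESeq2, fastp and StringTie 1.3.3b are named in the submitters' processing notes. The role of each, the counter of batch 2 and the strand setting are not given in the sources used here. The tables were joined by gene ID (22146 genes) or symbol (13414). The joined genes held 98.9% to 99.5% of counts in batch 1, and in batch 2 93.1% to 95.8% in PS libraries and 85.2% to 87.4% in ISO libraries. Unnamed entries of batch 1 (0.16% to 0.39% of counts) were left out. No duplicates were seen among 23 pairs of libraries of the same group and batch. Other pairs were not part of this check.

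Counts were tested in R 4.3.3 with edgeR 4.0.16 (TMM, filterByExpr at a minimum count of 10, robust quasi-likelihood fit, group and batch as terms, 14 residual degrees of freedom, Benjamini-Hochberg adjustment). The scripts were tested on simulated data. CPM are scaled by library size and TMM factor; log2 CPM use a prior count of 2. P-values set a group difference against the spread between libraries, in which mouse, dissection and library preparation are not separated. GC content and lengths are from the longest GENCODE M21 transcript. Alternatives included DESeq2 1.42.0, limma 3.58.1 (voom), other scalings and filters, batch and replicate terms and the removal of libraries. Members, lists and alternatives were chosen with earlier results of these data known. Pathway genes are named as the 3 per role with the smallest p for both PS groups averaged against ISO, and like genes by the highest correlation.

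Exons of some members overlap genes on the opposite strand (GENCODE M21): 2442 of 12128 exon bases of Fbn1, 764 of 8184 of Ltbp2, 267 of 8098 of Eln and 89 of 1922 of Mfap4. Reads of the 2 strands cannot be told apart there.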

Additional observations from a re-analysis of the deposited data

Results flagged for a closer look

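A gap test (Dixon, 95% level) was run on each of the 9 genes in each of the 3 groups, 27 groups in all, and it marked 5. Chance marks about 1 in 20 groups, and the genes are correlated, so the marks are not independent. Eln was at 253 CPM in 100 nm PS replicate 1, where the next library of the group was at 157 CPM. Ltbp2 was at 68.7 CPM in 1 µm PS replicate 1, with the next at 18.5 CPM, and Emilin1 was at 92.6 CPM in the same library, with the next at 69.6 CPM. Mfap5 was at 35.3 CPM in 100 nm PS replicate 5, with the next lowest at 72.6 CPM. Fbn1 was at 194 CPM in ISO replicate 1, with the next at 121 CPM.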

How the results depend on the processing

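The number of the 9 genes that passed was 2 to 6 at 100 nm, 2 to 4 at 1 µm, 0 for 1 µm against 100 nm and 6 to 7 for both PS groups averaged when each of the 18 libraries was left out in turn, and 0 to 1 for the batch-by-PS term. With DESeq2 it was 5 at 1 µm, where 2322 of all genes passed, and at an adjusted p under 0.1 it was 5 at 1 µm and 1 for the batch-by-PS term. Without the batch term it was 0 at 100 nm and 0 at 1 µm, and in batch 2 alone 0 at 100 nm, 0 at 1 µm and 0 for both averaged. In a fit of only the groups compared it was 0 at 1 µm. With the GC correction it was 0 at 100 nm, 0 at 1 µm and 1 for the batch-by-PS term. Without ISO replicates 1 and 2 together it was 3 at 100 nm, 1 at 1 µm and 2 for both averaged. The cause of these changes was not tested. For the batch-by-PS term the share of all genes is not given in these alternatives, so its counts cannot be set against it.

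No pairing of the libraries by replicate number was seen: of 18 same-numbered pairs 3 correlated above 0.1 (r from -0.437 to 0.229), and 0 of 18 libraries were closest to their own number. Low correlations cannot exclude a pairing. With the replicate number as a block 0 passed at 100 nm, 0 at 1 µm and 4 for both averaged (of all genes 0, 0 and 467), and with the block and the GC correction together 0 passed at 100 nm, 0 at 1 µm and 0 for both averaged (of all genes 0 in each).

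Fold changes turned below 0 for Fbn1 at 1 µm in batch 1 alone (-0.16), with the GC correction (-0.033), with block and GC correction (-0.035) and without 1 µm PS replicate 1 (-0.012), and in batch 2 alone for Mfap4 (-0.10) and Mfap5 (-0.63) at 1 µm. For both PS groups averaged the sign turned in batch 2 alone for Adamts10 (-0.03), Mmrn1 (-0.19), Bmp4 (-0.40) and Emilin2 (0.43). Emilin2 was also at 0.17 with limma voom, 0.12 without ISO replicate 2 and 0.085 without ISO replicates 1 and 2. With the GC correction Ltbp1 was at -0.02 and Hmcn2 at -0.081, and Hmcn2 was at -0.30 with the block as well. None of these passed in the main comparison.

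Over all genes, calls ran from 0 to 2644 at 100 nm and from 0 to 2328 at 1 µm across the alternatives, from 170 to 2283 and from 265 to 2334 with 1 library left out, and DESeq2 called 2607 and 2322. For both averaged they ran from 0 to 4009. RLE and upper-quartile factors moved the median of all genes by at most 0.02, and the GC correction moved it to -0.16 at 100 nm, -0.10 at 1 µm and -0.13 for both averaged. For the pathway genes, the counts over all genes, the batch-by-PS term and the marker lists the alternatives were added after the data were seen. Batch 2 alone leaves 3 residual degrees of freedom. The batch-by-PS term was not run with DESeq2, without batch, in single batches, in the groups compared or with the block.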
